A study of Rattus norvegicus with 9 samples.

Results

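Voltage-gated sodium and calcium channel genes were taken by symbol from read counts of rat striatal tissue. They are the genes named Scn plus a number plus a or b, and those whose symbol begins with Cacna, Cacnb, Cacng or Cacna2d and continues with a number. The rule found 40 of the 22890 genes in the tables. Of these, 38 are described here, and 32 of the 38 had enough reads to be tested. The 38 comprise 9 sodium channel alpha and 3 sodium channel beta subunits, 10 calcium channel alpha 1 subunits, 4 calcium channel beta subunits, 4 alpha 2 delta subunits and 8 gamma subunits. The RNA came from bulk striatum, part of the basal ganglia, in 9 libraries. EDB denotes edaravone dexborneol, a free radical scavenger combined with a borneol isomer, ICH denotes intracerebral hemorrhage, and Sham is the control, with 3 libraries each. The labels give neither strain, age, sex, dose, time nor the way the hemorrhage was made, and they do not state whether EDB rats had also received a hemorrhage. Separate animals are not stated for the replicates, so p-values describe the spread among these samples, which may be technical.

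Voltage-gated sodium channels open on depolarization and carry the rising phase of the action potential. Each has 1 pore-forming alpha subunit, and beta subunits tune its gating and anchor it in the membrane. Calcium channels couple depolarization to transmitter release, gene expression and firing patterns: alpha 1 subunits form the pore, and beta and alpha 2 delta subunits bring it to the surface. Most gamma genes of the brain encode partners of AMPA glutamate receptors rather than of calcium channels. Striatal projection neurons are known for beta 4 (Scn4b), which supports a resurgent sodium current, and for L-type channels that shape their firing.

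Total counts ran from 14658110 to 17659936 per library, and the 38 channel genes took 59466 to 112327 of them. Levels are given in CPM, read counts scaled by the TMM-adjusted library size and listed in library order 1 to 3, and cannot be compared between genes because transcript lengths were not used. Whether the libraries of groups overlap is given as a description, and how often groups separate among all tested genes was not counted. A change is the fitted log2 fold change ± SE of 3 libraries against 3, where a small added count shrinks the fold change. The SE was derived from the fold change before shrinkage and the test's F statistic, with the spread estimated over all 9 libraries. Rose, fell and called, where no other tool is named, are used of genes with an adjusted p under 0.05 in edgeR's quasi-likelihood test, by the Benjamini-Hochberg method across the 14274 tested genes. The first principal component (41.0% of the variance) separated the groups, and Sham 2 lay apart from the other Sham libraries on the second (19.1%). Among the 32 tested channel genes, Sham 2 was the highest Sham library for 19, between the others for 7 and the lowest for 6. EDB 3 held 7196 CPM in sum of 5 choroid plexus and ependyma markers, against 36.5 to 74.1 CPM in every other library. Striatal neuron markers were abundant throughout, at 8853 to 10114 CPM in EDB, 6036 to 7492 CPM in ICH and 8266 to 13242 CPM in Sham, while 8 markers of cortical and thalamic excitatory neurons summed to 31.4 to 92.2 CPM.

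Channel transcripts were mostly lower in ICH than in Sham striatum. Of the 32 tested, 12 fell and 0 rose, where 7.3% of all tested genes fell and 11.4% rose. The falls were distributed over every class of subunit, and the deepest were in Cacnb3, Cacna1h and Cacna1i, by 1.17, 1.05 and 0.96 on the log2 scale. The median change was -0.49 over the tested channel genes and 0.0066 over all tested genes, with 29 of 32 and 7043 of 14274 below 0. In bulk tissue, fewer neurons and less channel RNA per neuron cannot be told apart. At an unadjusted p under 0.05, edgeR counted 17 falls and 0 rises among the channel genes, against 13.8% of all tested genes fallen and 17.7% risen. DESeq2 called 15 falls and 0 rises among them, where it called 10.3% of all tested genes fallen and 12.6% risen. Limma-voom called 11 falls and 0 rises, where it called 7.08% fallen and 11.4% risen. Leaving out ICH 1, ICH 2 or Sham 3 reduced the number that fell to 6, 7 or 7, and without both Sham 2 and EDB 3 it was 8.

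**Figure D1:**
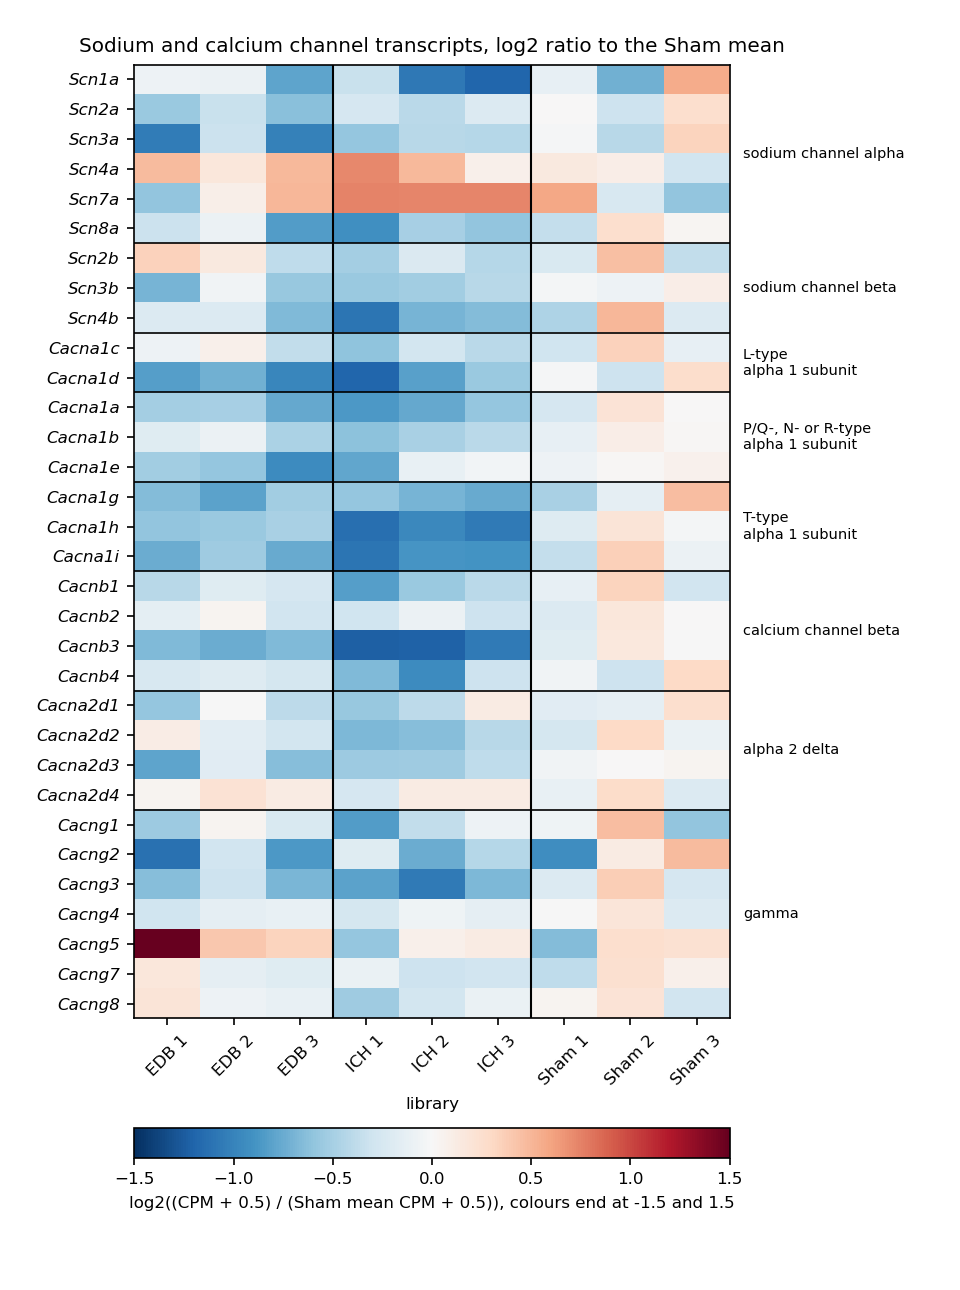
Log2 ratio of each library to the Sham mean, computed from CPM plus 0.5, for the 32 tested channel genes (vertical axis, grouped by subunit class) in the 9 libraries (horizontal axis, EDB, ICH, then Sham). Blue is below the Sham mean and red above it, and the ICH columns are blue in most genes, with the median over the genes at -0.58, -0.49 and -0.41 in ICH 1, 2 and 3.

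Among the sodium channel alpha subunits described, 1 of the 6 tested fell in ICH. It was Scn8a, the main channel of the axon initial segment and nodes in adult neurons, with 109, 129 and 76.02 CPM in EDB, 71.7, 96.5 and 90.2 CPM in ICH and 107, 163 and 139 CPM in Sham. All ICH libraries lay below all Sham libraries, while EDB overlapped both. Scn8a changed by -0.66 ± 0.21 (adjusted p = 0.0497), and the call was lost without EDB 1, ICH 1, ICH 2, ICH 3, Sham 2 or Sham 3, at adjusted p values between 0.06399 and 0.168.

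The other pore genes of central neurons did not pass the test. Scn1a, prominent in fast-spiking interneurons, had 24.6, 24.4 and 14.8 CPM in EDB, 20.3, 12.02 and 11.1 CPM in ICH and 23.8, 15.5 and 38.3 CPM in Sham. Its ICH and Sham libraries overlapped, and its log2 fold change of -0.84 ± 0.34 (adjusted p = 0.1195) was called only without Sham 2, at an adjusted p of 0.0445, among the single libraries left out, and was -0.44 without Sham 3. Scn2a, found in unmyelinated axons and dendrites, had 55.99, 65.6 and 53.5 CPM in EDB, 69.8, 62.3 and 72.04 CPM in ICH and 83.3, 66.8 and 98.5 CPM in Sham. ICH and Sham overlapped, with a log2 fold change of -0.28 ± 0.15 (adjusted p = 0.234). Scn3a, best known from the developing brain, had 11.5, 19.5 and 11.8 CPM in EDB, 16.2, 18.1 and 17.98 CPM in ICH and 24.1, 18.2 and 30.9 CPM in Sham. Every ICH library lay just below every Sham library, but the log2 fold change of -0.49 ± 0.24 (adjusted p = 0.195) was not called.

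The pore genes of skeletal muscle and glia were near the limit of detection. Scn4a, the skeletal muscle channel, had 1.299, 0.959 and 1.31 CPM in EDB, 1.63, 1.32 and 0.864 CPM in ICH and 0.937, 0.889 and 0.566 CPM in Sham. Scn7a, a sodium sensor of glia and circumventricular organs, had 0, 0.2997 and 0.563 CPM in EDB, 0.758, 0.755 and 0.756 CPM in ICH and 0.625, 0.137 and 0 CPM in Sham. Counts of 0 occurred in EDB 1 and Sham 3, which allow up to 0.186 and 0.212 CPM (3 counts). Neither was called, at log2 fold changes of 0.66 ± 0.43 (adjusted p = 0.333) and 1.503 ± 1.003 (adjusted p = 0.338). Scn9a, Scn10a and Scn11a, channels of peripheral sensory neurons, were too low to test, with no more than 23, 6 and 8 counts in any library. The skeletal muscle markers summed to 19.3 to 28.8 CPM in EDB, 17.6 to 19.4 CPM in ICH and 27.2 to 41.04 CPM in Sham.

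Among the 3 sodium channel beta genes described, all tested, Scn4b fell in ICH. Scn4b had 1953, 1956 and 1427 CPM in EDB, 1051, 1389 and 1439 CPM in ICH and 1627, 3173 and 1948 CPM in Sham. ICH stayed below Sham, with Sham 2 far above the other Sham libraries. Scn4b changed by -0.80 ± 0.24 (adjusted p = 0.0435), and by -0.47 without Sham 2. Its call was lost without EDB 1, EDB 2, ICH 1, ICH 2, ICH 3, Sham 2 or Sham 3, at adjusted p values between 0.0556 and 0.151.

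Scn3b and Scn2b were not called. Scn3b spanned 136 to 214 CPM in EDB, 150.2 to 166 CPM in ICH and 210.2 to 239 CPM in Sham, with no overlap of ICH and Sham, and its log2 fold change was -0.50 ± 0.16 (adjusted p = 0.0517). That value crossed the threshold without EDB 1 or EDB 2, at adjusted p values between 0.0118 and 0.0438. DESeq2 called Scn3b fallen, at an adjusted p of 0.0134. Scn2b spanned 485 to 798 CPM in EDB, 443 to 541 CPM in ICH and 489 to 863 CPM in Sham and had a log2 fold change of -0.38 ± 0.23 (adjusted p = 0.299). ICH and Sham overlapped in Scn2b.

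**Figure D2:**
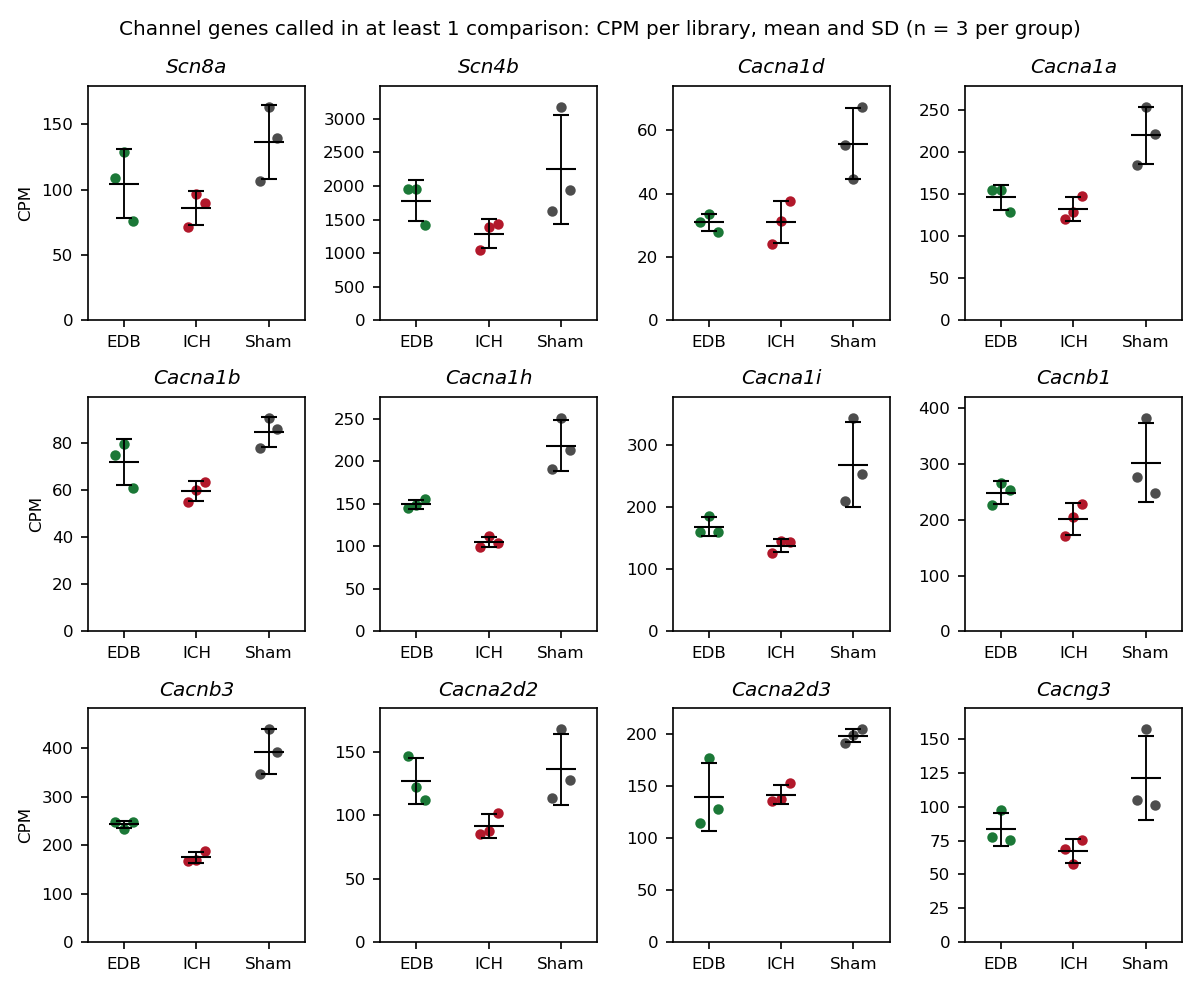
CPM (vertical axis, from 0) in each library of the EDB, ICH and Sham groups (horizontal axis) for the 12 channel genes called in at least 1 comparison, with the mean and SD of 3 libraries as bars. In every panel all ICH points lie below all Sham points, and in Cacna1h, Cacna1i, Cacnb3 and Cacna2d2 all EDB points lie above all ICH points. The genes were chosen by calls on these same libraries, so this separation is no separate support. How often it occurs among all tested genes was not counted.

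Of the L-type pore genes, which respond to dihydropyridines, Cacna1d fell in ICH. It opens at more negative voltages than its relative Cacna1c and had 31.1, 33.5 and 28.01 CPM in EDB, 24.2, 31.3 and 37.6 CPM in ICH and 55.2, 44.7 and 67.2 CPM in Sham. EDB and ICH overlapped, and both lay below Sham. Cacna1d changed by -0.84 ± 0.19 (adjusted p = 0.0105) in ICH against Sham, and no single library left out ended the call. Cacna1c, the other brain L-type channel, had 72.7, 80.7 and 59.1 CPM in EDB, 50.4, 63.2 and 57.9 CPM in ICH and 62.2, 97.5 and 70.2 CPM in Sham. The groups overlapped, and its log2 fold change was -0.42 ± 0.18 (adjusted p = 0.137). Cacna1f of the retina and Cacna1s of skeletal muscle were not tested, with up to 3 and 14 counts in a library.

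Of the P/Q-, N- and R-type pore genes, Cacna1a and Cacna1b fell and Cacna1e was not called. Cacna1a, the P/Q-type channel that triggers transmitter release, had 155, 156 and 129 CPM in EDB, 121, 129 and 148 CPM in ICH and 185, 254 and 222 CPM in Sham. EDB and ICH overlapped below all Sham libraries. Cacna1a changed by -0.73 ± 0.14 (adjusted p = 0.00496). Its promoter window is shown because Cacna1a was called against Sham in both other groups. The RefSeq window runs from 250 bases before to 50 after the gene's start, chr19:40650419-40650718 on the minus strand of GRCr8, a later assembly than the Rnor_6.0 of the counts. It is written 5′ to 3′ with the GC box (GGGCGG on either strand) in capitals. The 50 bases after the start begin with atg, the letters of a start codon, and where transcription begins was not tested.
Cacna1a: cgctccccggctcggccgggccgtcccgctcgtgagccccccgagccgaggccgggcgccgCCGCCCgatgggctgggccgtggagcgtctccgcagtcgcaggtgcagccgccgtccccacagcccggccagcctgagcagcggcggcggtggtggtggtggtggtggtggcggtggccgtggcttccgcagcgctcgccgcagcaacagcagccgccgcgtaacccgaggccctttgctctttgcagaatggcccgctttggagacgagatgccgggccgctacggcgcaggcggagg

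Cacna1b, the N-type channel of nerve terminals, had 74.6, 79.7 and 60.8 CPM in EDB, 55.04, 60.03 and 63.6 CPM in ICH and 77.7, 90.4 and 85.7 CPM in Sham. ICH lay below Sham, and EDB overlapped both. Cacna1b changed by -0.51 ± 0.13 (adjusted p = 0.0199), and its call was lost without ICH 1 or Sham 3, at adjusted p values between 0.0523 and 0.0751. The R-type gene Cacna1e, found in dendrites and terminals, had 33.5, 32.3 and 25.01 CPM in EDB, 27.99, 44.9 and 47.1 CPM in ICH and 45.8, 48.8 and 50.6 CPM in Sham. ICH overlapped Sham while all EDB libraries were below Sham. Cacna1e had a log2 fold change of -0.28 ± 0.19 (adjusted p = 0.375) in ICH against Sham.

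T-type channels open near the resting potential and support burst firing, and 2 of their 3 genes fell in ICH. Cacna1h had 145, 149 and 155 CPM in EDB, 99.8, 112 and 104 CPM in ICH and 192, 251 and 214 CPM in Sham. The groups formed 3 separate bands, ICH lowest and Sham highest. Cacna1h changed by -1.05 ± 0.12 (adjusted p = 0.000175). Cacna1i, the slowest of the family to inactivate, had 160.4, 186 and 159 CPM in EDB, 126, 145 and 144 CPM in ICH and 210.2, 344 and 253 CPM in Sham. Its bands were also separate in the same order, with EDB close to ICH. Cacna1i changed by -0.96 ± 0.17 (adjusted p = 0.00273).

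Cacna1g, the third T-type gene, had 11.6, 10.4 and 12.8 CPM in EDB, 12.2, 11.3 and 10.8 CPM in ICH and 13.1, 16.9 and 25.6 CPM in Sham. EDB and ICH overlapped below Sham. Cacna1g had a log2 fold change of -0.69 ± 0.23 (adjusted p = 0.0602), which reached the threshold without Sham 1, at an adjusted p of 0.0161, and was -0.39 without Sham 3. DESeq2 called Cacna1g fallen, at an adjusted p of 0.0249.

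Calcium channel beta subunits sit on the inner face of the channel and promote its delivery to the membrane. Cacnb3 had 247, 234 and 248 CPM in EDB, 167, 169 and 188 CPM in ICH and 346, 438 and 391 CPM in Sham. As in Cacna1h, the groups did not overlap, with ICH lowest and Sham highest. Cacnb3 changed by -1.17 ± 0.12 (adjusted p = 8.29e-05), the smallest p of the 32 tested channel genes in this comparison. Its window, chr7:131666301-131666600 on the plus strand of GRCr8, is shown as that of the gene with the deepest fall, with 3 GC boxes in capitals.
Cacnb3: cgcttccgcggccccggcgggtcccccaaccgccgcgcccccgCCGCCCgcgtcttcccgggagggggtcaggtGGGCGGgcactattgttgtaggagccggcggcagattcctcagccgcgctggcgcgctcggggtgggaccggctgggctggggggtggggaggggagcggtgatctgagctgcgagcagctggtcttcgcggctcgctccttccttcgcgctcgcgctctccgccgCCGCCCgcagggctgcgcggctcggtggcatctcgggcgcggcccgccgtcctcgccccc

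Windows were found for 27 of the 38 channel genes, 30 in all. The GC box occurred in 16 of these 30 (53.3%), against 33.1% of all 33465 rat windows. Their median GC content was 62.3%, against 51.7% for all windows, and its part in that count was not tested. Windows of Cacna2d1 overlap each other and were counted separately. Of other motifs searched, the CCAAT box was in 16.7% of channel windows against 37.5% of all, and the TATA box in 6.67% against 14.2%. The EGR core (GCGGGGGCG) was in 13.3% against 2.73%.

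Cacnb1 had 226, 266 and 254 CPM in EDB, 171, 204 and 228 CPM in ICH and 276, 382 and 247 CPM in Sham. Each ICH library was below each Sham library, and EDB overlapped both. Cacnb1 changed by -0.59 ± 0.17 (adjusted p = 0.0356), and by -0.38 without Sham 2. The call was lost without ICH 1, ICH 2 or Sham 2, at adjusted p values between 0.0791 and 0.1299. Cacnb2 spanned 61.6 to 77.03 CPM in EDB, 60.5 to 70.6 CPM in ICH and 64.9 to 84.7 CPM in Sham. Cacnb4 spanned 8.44 to 8.87 CPM in EDB, 5.097 to 8.15 CPM in ICH and 8.14 to 12.7 CPM in Sham. Their ICH and Sham libraries overlapped, and their log2 fold changes of -0.23 ± 0.14 (adjusted p = 0.291) and -0.65 ± 0.24 (adjusted p = 0.0843) were not called. Cacnb4 was called without Sham 2, at an adjusted p of 0.04896, and by DESeq2, at an adjusted p of 0.0425.

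The shares of the 4 beta genes in their common reads differed between groups, as a description with no test. Cacnb3 took 44.9%, 39.95% and 43.4% in EDB, 41.3%, 37.6% and 38.8% in ICH, and 49.6%, 48.03% and 53.9% in Sham of these reads. Cacnb2 took 12.3%, 13.2% and 10.8% in EDB, 15.02%, 15.7% and 12.5% in ICH, and 9.304%, 9.28% and 10.4% in Sham. Cacnb1 took 41.2%, 45.4% and 44.4% in EDB, 42.1%, 45.5% and 47.03% in ICH, and 39.6%, 41.8% and 34.01% in Sham. All ICH libraries had a smaller Cacnb3 share and larger Cacnb1 and Cacnb2 shares than all Sham libraries, while the Cacnb4 shares overlapped. The 95% exact Clopper-Pearson intervals were at most 2.34 points wide and cover counting error only, and the shares depend on transcript lengths. Shares within a family also depend on each other: Cacnb1 itself fell in ICH, and Cacnb2 was not called. Among Scn1a, Scn2a, Scn3a and Scn8a, and among the T-type genes, every share overlapped between ICH and Sham.

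Alpha 2 delta subunits are extracellular partners that raise channel density, and those encoded by Cacna2d1 and Cacna2d2 bind gabapentin. Cacna2d2 had 147, 122 and 112 CPM in EDB, 85.3, 87.6 and 102 CPM in ICH and 114, 168 and 128 CPM in Sham. Its ICH libraries lay below both other groups, which overlapped. Cacna2d2 changed by -0.57 ± 0.16 (adjusted p = 0.03104), and its call was lost without ICH 1, ICH 2, Sham 2 or Sham 3, at adjusted p values between 0.0513 and 0.107. Cacna2d3 had 115, 177 and 128 CPM in EDB, 136, 138 and 153 CPM in ICH and 192, 199.9 and 205 CPM in Sham. The Sham libraries were tightly grouped above all others, and EDB spread around ICH. Cacna2d3 changed by -0.48 ± 0.15 (adjusted p = 0.0479), and its call was lost without EDB 3, ICH 1, ICH 2, ICH 3, Sham 1, Sham 2 or Sham 3, at adjusted p values between 0.0594 and 0.137.

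Cacna2d1 spanned 3.84 to 5.93 CPM in EDB, 3.85 to 6.53 CPM in ICH and 5.25 to 7.22 CPM in Sham and had a log2 fold change of -0.27 ± 0.29 (adjusted p = 0.586). Cacna2d4, known from the retina, spanned 0.681 to 0.839 CPM in EDB, 0.466 to 0.756 CPM in ICH and 0.496 to 0.889 CPM in Sham and had a log2 fold change of 0.023 ± 0.47 (adjusted p = 0.984). Both overlapped between ICH and Sham and were not called.

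Among gamma genes, 1 of the 7 tested fell. Cacng3, which helps carry AMPA receptors to the synapse, had 77.5, 97.2 and 75.02 CPM in EDB, 68.9, 57.6 and 75.5 CPM in ICH and 105, 157 and 101 CPM in Sham. EDB and ICH overlapped, and all their libraries were below the lowest Sham library. Cacng3 changed by -0.84 ± 0.19 (adjusted p = 0.00954). Its window, chr1:186632312-186632611 on the plus strand of GRCr8, is shown because it holds 2 copies of the core of RE1, the element bound by the neuronal gene repressor REST. The core was searched as CAGCACC, any 2 bases, then GGAC on either strand, and is in capitals.
Cacng3: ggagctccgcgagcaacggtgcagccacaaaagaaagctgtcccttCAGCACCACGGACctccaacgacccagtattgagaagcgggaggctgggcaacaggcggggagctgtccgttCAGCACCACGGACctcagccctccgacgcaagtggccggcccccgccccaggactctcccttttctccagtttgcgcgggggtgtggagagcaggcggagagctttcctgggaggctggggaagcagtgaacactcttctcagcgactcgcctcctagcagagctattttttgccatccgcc

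The core occurred in 19 of 33465 windows (0.0568%), at least 2 times in 2 of them, and in no other channel window. A match describes the letters and shows no binding.

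The other gamma genes were not called in ICH. Cacng2 (stargazin), Cacng4 and Cacng8 encode AMPA receptor partners of the same kind. Cacng2 spanned 6.001 to 11.03 CPM in EDB, 7.93 to 11.95 CPM in ICH and 6.87 to 19.04 CPM in Sham. Cacng4 spanned 213 to 242 CPM in EDB, 217 to 249.8 CPM in ICH and 228 to 296 CPM in Sham. Cacng8 spanned 48.95 to 60.6 CPM in EDB, 36.5 to 49.5 CPM in ICH and 43.4 to 61.2 CPM in Sham. ICH and Sham overlapped in each, at log2 fold changes in that order of -0.45 (adjusted p = 0.438), -0.15 (adjusted p = 0.451) and -0.29 (adjusted p = 0.258). Cacng7, a second type of such partner, spanned 141 to 180.0 CPM in EDB, 129 to 149 CPM in ICH and 122 to 189 CPM in Sham and had a log2 fold change of -0.23 ± 0.17 (adjusted p = 0.389). Cacng1, of skeletal muscle, spanned 1.11 to 1.92 CPM in EDB, 0.816 to 1.73 CPM in ICH and 1.06 to 2.74 CPM in Sham and had a log2 fold change of -0.52 ± 0.47 (adjusted p = 0.503). Cacng6 was not tested, at no more than 7 counts in a library.

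Cacng5 stood out by its EDB values among the uncalled genes. It had 58.2, 19.8 and 19.01 CPM in EDB, 9.85, 15.8 and 16.4 CPM in ICH and 9.31, 17.9 and 17.6 CPM in Sham. EDB 1 was far above every other library, and the 3 EDB libraries exceeded all ICH and Sham libraries. Its log2 fold change was -0.09 ± 0.43 (adjusted p = 0.921) in ICH against Sham and 1.21 ± 0.43 (adjusted p = 0.204) in EDB against ICH. Without EDB 1 the value for EDB against ICH was 0.47.

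Markers of cell types moved in the same libraries. In ICH against Sham 3 of 12 neuron markers fell and 0 rose, at a median of -0.35. Their sum was 3371 to 3718 CPM in EDB, 2655 to 3163 CPM in ICH and 3389 to 4291 CPM in Sham. Of 11 tested striatal neuron markers 4 fell, at a median of -0.52. All 12 microglia and macrophage markers rose, at a median of 2.64, and summed to 1619 to 2900.2 CPM in EDB, 3653 to 3935 CPM in ICH and 671 to 770.1 CPM in Sham. Their part in the channel results was not tested.

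Other glial and vascular lists gave mixed values. Astrocyte markers had 2 rises among 8 and summed to 6515 to 7619.8 CPM in EDB, 9066 to 9333 CPM in ICH and 4241 to 5019.9 CPM in Sham. Gfap alone averaged 3234 CPM in EDB, 4918 CPM in ICH and 484 CPM in Sham, and the other rise was Gja1. Of the uncalled astrocyte genes, S100b, Slc1a2 and Aldh1l1 were below 0 and Aqp4, Slc1a3 and Sox9 above it, at a list median of 0.35. None of the 8 oligodendrocyte markers was called, and their sum was 37935 to 43532 CPM in EDB, 16084 to 32132 CPM in ICH and 17021 to 27591 CPM in Sham. Of the oligodendrocyte precursor markers 5 of 6 rose, at 1177 to 1306 CPM in EDB, 1082 to 1446 CPM in ICH and 732 to 875 CPM in Sham. Of 7 endothelial markers 1 fell, and their sum was 264 to 273 CPM in EDB, 247 to 318 CPM in ICH and 313 to 505 CPM in Sham. Of 7 mural cell markers 2 fell, and theirs was 126 to 176 CPM in EDB, 147 to 178 CPM in ICH and 219.7 to 336 CPM in Sham. None of the 5 tested choroid plexus markers and 7 tested cortical and thalamic markers was called. Of the 5 tested skeletal muscle markers 2 fell.

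**Figure D3:**
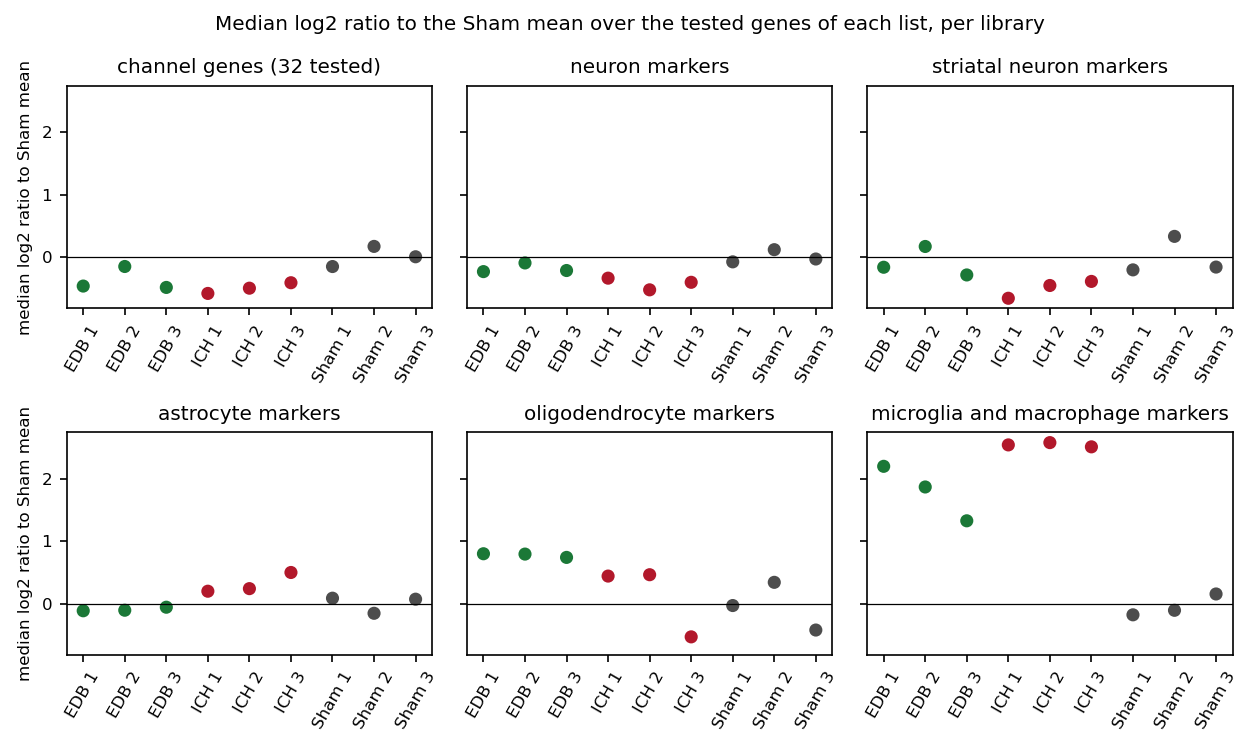
Median log2 ratio to the Sham mean (vertical axis) over the tested genes of 6 lists in each of the 9 libraries (horizontal axis). The 32 channel genes and both neuron lists sit below 0 in every ICH library, at -0.58 to -0.41 for the channel genes, while the microglia and macrophage markers sit between 2.51 and 2.58 there.

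Scaling the libraries by the summed counts of the 12 neuron markers, a choice made after seeing the data, left 5 channel genes that fell in ICH. They were Cacnb3 at -0.79, Cacna1h at -0.68, Cacna1i at -0.57, Cacng3 at -0.46 and Cacna1a at -0.36, with adjusted p of 0.000202, 0.00145, 0.00642, 0.0401 and 0.0198 in that order. This scaling moved the median of all tested genes to 0.37, and 273 of them fell. The sum leans on abundant markers such as Eno2 and Uchl1, at means of 930 and 569 CPM in ICH and log2 fold changes of -0.30 and -0.26. With TMM scaling the 12 markers ran from -0.86 in Nefm to -0.076 in Syt1. Whether channel genes fell beyond the neuron content was not tested. The same 5 channel genes had an adjusted p under 0.01 with TMM scaling, and each kept its call in all 19 alternatives.

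In EDB against ICH 0 of the 32 tested channel genes were called by edgeR, where 0.056% of all tested genes rose and 0.631% fell, or by limma-voom, where 0.147% rose and 1.13% fell. DESeq2 called 2 of them risen and 0 fallen, where it called 1.51% of all tested genes risen and 3.37% fallen. At an unadjusted p under 0.05, edgeR gave 4 rises, in Cacna1h, Cacnb3, Cacna2d2 and Cacng5, and 0 falls, against 6.27% of all tested genes risen and 9.97% fallen. Cacna1h and Cacnb3 had every EDB library above every ICH library. Cacna1h had a log2 fold change of 0.51 ± 0.12 (adjusted p = 0.0848) and Cacnb3 one of 0.48 ± 0.12 (adjusted p = 0.0936). Both were called by DESeq2, at adjusted p of 0.00751 and 0.00778, and by edgeR without Sham 2, at 0.0353 and 0.0414. Without both Sham 2 and EDB 3 edgeR called 1 rise, in Scn2b, at 0.66 (adjusted p = 0.0487). Cacna2d2, Cacna1i and Cacnb4 were likewise higher in each EDB than in each ICH library, at 0.47 ± 0.16 (adjusted p = 0.191), 0.29 ± 0.17 (adjusted p = 0.435) and 0.40 ± 0.24 (adjusted p = 0.434). These separations are description only, since their share among all tested genes was not counted. The median change was 0.21 over the 32 channel genes and -0.033 over all tested genes, and these values share the ICH libraries with ICH against Sham.

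Apart from Scn7a, Cacna1h and Cacna1i, the tested pore genes overlapped between EDB and ICH. Scn8a, Cacna1a and Cacna1b had log2 fold changes of 0.28 (adjusted p = 0.546), 0.14 (adjusted p = 0.656) and 0.27 (adjusted p = 0.343). Cacna1d had a log2 fold change of -0.0086 ± 0.19 (adjusted p = 0.987), with EDB at 30.9 ± 2.76 CPM and ICH at 31.1 ± 6.73 CPM (SD, n = 3 each). Cacna1e and Scn2a were on the other side of 0, at -0.40 (adjusted p = 0.343) and -0.22 (adjusted p = 0.502). Cacna2d3 and Cacng4 had log2 fold changes of -0.023 (adjusted p = 0.957) and -0.023 (adjusted p = 0.946). None of these was called. In the same comparison edgeR called 0 of 12 neuron markers, at a median of 0.17, while 3 were higher at an unadjusted p under 0.05 and DESeq2 called 2 risen. Of 11 striatal neuron markers edgeR called 0, at a median of 0.43, while 5 were higher at an unadjusted p under 0.05 and DESeq2 called 3 risen. Of 12 microglia and macrophage markers edgeR called 1 fallen, Lyz2, at a list median of -0.65, while DESeq2 called 4 fallen. Of 8 oligodendrocyte markers edgeR called 0, at a median of 0.52, while 2 were higher at an unadjusted p under 0.05 and DESeq2 called 1 risen. The part of these lists in the channel values was not tested.

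**Figure D4:**
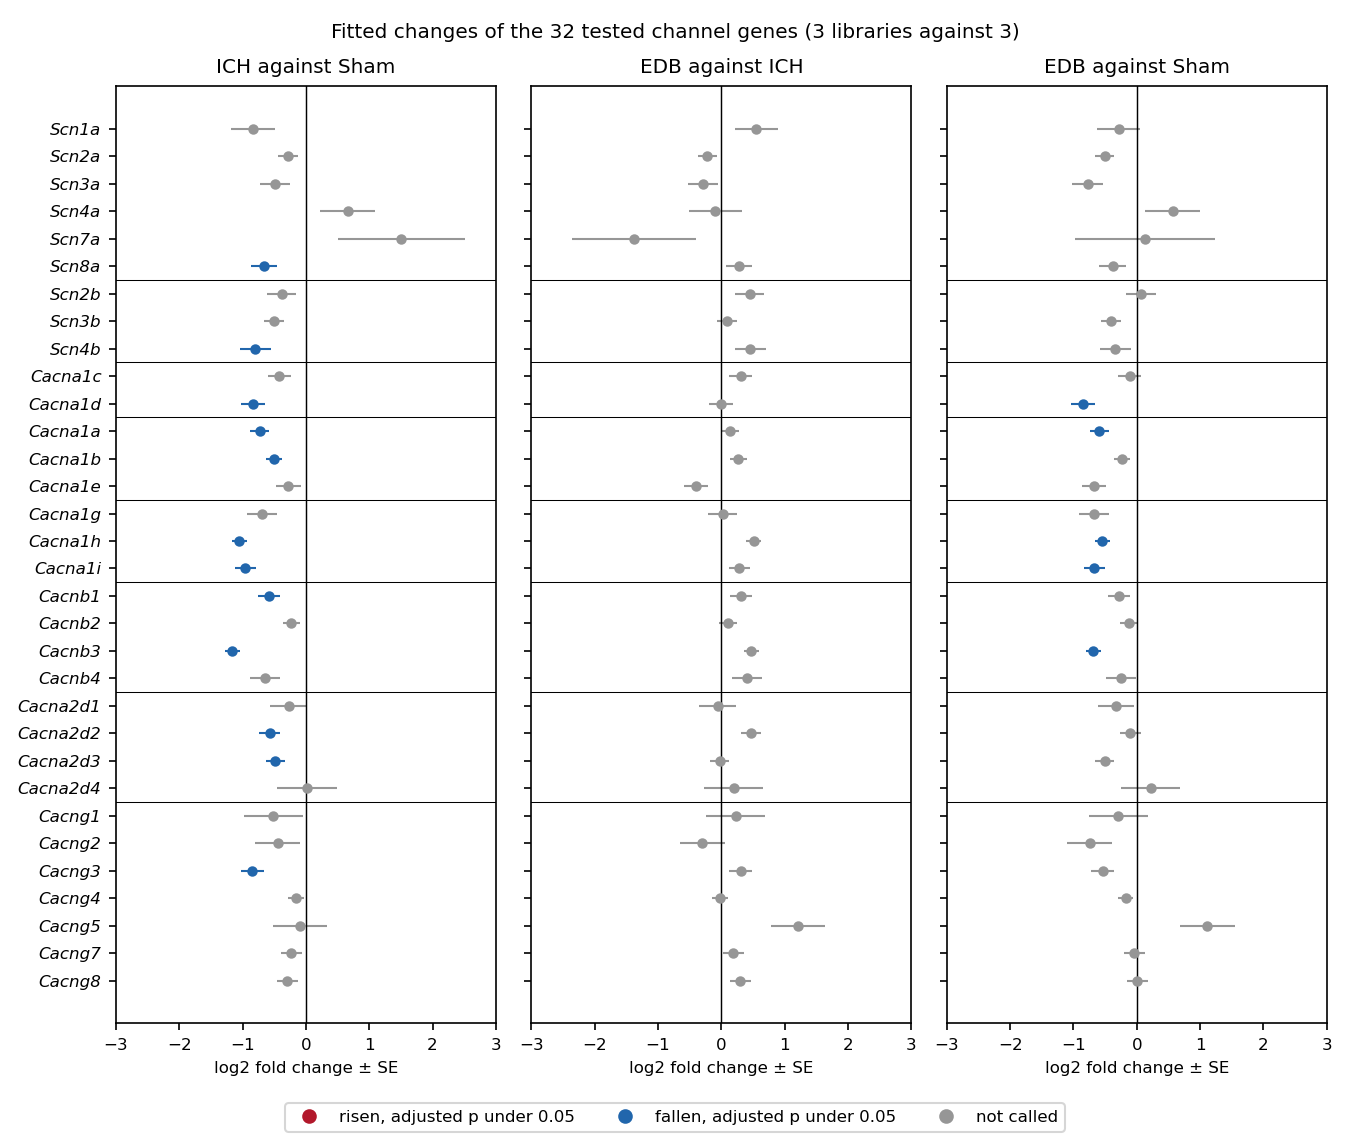
Fitted log2 fold change ± SE (horizontal axis) of the 32 tested channel genes (vertical axis, by subunit class) in ICH against Sham, EDB against ICH and EDB against Sham, with 3 libraries on each side. Blue marks genes that fell and red those that rose at an adjusted p under 0.05: 12 fell in the first panel, 0 were called in the second and 5 fell in the third.

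In EDB against Sham 5 channel genes fell and 0 rose, where 2.71% of all tested genes fell and 4.95% rose. The genes were Cacnb3, the T-type pores Cacna1h and Cacna1i, the P/Q-type pore Cacna1a and the L-type pore Cacna1d. Cacnb3 changed by -0.69 ± 0.12 (adjusted p = 0.00528) and kept its call in all 19 alternatives. Cacna1d changed by -0.85 ± 0.19 (adjusted p = 0.0211), Cacna1a by -0.59 ± 0.14 (adjusted p = 0.0308), Cacna1i by -0.67 ± 0.17 (adjusted p = 0.0357) and Cacna1h by -0.55 ± 0.12 (adjusted p = 0.0196). In all 5 each EDB library was below each Sham library, but they were chosen by calls on these same libraries, so this separation is no separate support. The EDB means were 243 ± 7.73 CPM for Cacnb3 and 150 ± 5.30 CPM for Cacna1h, against 392 ± 46.2 CPM and 219 ± 29.9 CPM in Sham (SD, n = 3 each).

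These calls other than that for Cacnb3 depended on single libraries. Cacna1h was not called without EDB 1, EDB 2, EDB 3 or Sham 3, at adjusted p values between 0.0501 and 0.0888. Cacna1d was not called without EDB 1, EDB 3, Sham 1 or Sham 3, at adjusted p values between 0.0593 and 0.0867. For Cacna1a the call was lost without EDB 1, EDB 2, EDB 3, Sham 2 or Sham 3, at adjusted p values between 0.0529 and 0.112. For Cacna1i it was lost without EDB 1, EDB 2, EDB 3, ICH 2, ICH 3 or Sham 3, at adjusted p values between 0.0507 and 0.128. The number of calls was 1 without EDB 1, EDB 3 or Sham 3, and 3 without both Sham 2 and EDB 3.

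In Scn2a, Scn3a and Scn3b the lowest of the 9 libraries was an EDB library, as in calcium channel genes such as Cacna1e, Cacna2d3 and Cacng4. How often this occurs among all tested genes was not counted. Scn2a had a log2 fold change of -0.51 ± 0.15 (adjusted p = 0.0695), with no EDB library reaching any Sham library, and was called without Sham 2, at an adjusted p of 0.0174. Scn3a had a log2 fold change of -0.77 ± 0.24 (adjusted p = 0.0786) and was called without EDB 2 or Sham 2, at adjusted p values between 0.0252 and 0.03200. Scn3b had a log2 fold change of -0.41 ± 0.16 (adjusted p = 0.147) and was called without EDB 2, at an adjusted p of 0.0181. Neither Scn2b, at 0.069 ± 0.23 (adjusted p = 0.895), nor Scn4b, at -0.34 ± 0.24 (adjusted p = 0.455), was called.

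Among uncalled calcium channel genes, Cacna1e, Cacna2d3, Cacng3 and Cacna1g also had all EDB below all Sham libraries, at -0.68 (adjusted p = 0.0596), -0.51 (adjusted p = 0.0683), -0.54 (adjusted p = 0.107) and -0.67 (adjusted p = 0.107). The share of all tested genes with such separation was not counted. Cacna1e was called without ICH 1, at an adjusted p of 0.0175, and Cacna2d3 without EDB 2, at an adjusted p of 0.0103. Cacna1g was called without Sham 1, at an adjusted p of 0.0493, and was -0.37 without Sham 3. The median change was -0.31 over the channel genes and -0.0073 over all tested genes. At an unadjusted p under 0.05, edgeR gave 12 falls and 1 rise, against 10.1% of all tested genes fallen and 12.8% risen. The rise was Cacng5, at 1.12 ± 0.43 (adjusted p = 0.145) and 0.38 without EDB 1. DESeq2 called 9 falls and limma-voom 5 among the channel genes, where they called 5.28% and 2.3% of all tested genes fallen. The 9 included Cacna1e, Cacna2d3, Scn2a and Scn3a, at adjusted p of 0.016, 0.0209, 0.0214 and 0.0249. DESeq2 and limma-voom called 0 rises among the channel genes, where they called 7.33% and 4.05% of all tested genes risen. Of the 12 neuron markers edgeR called 0, at a median of -0.21, while 1 was lower at an unadjusted p under 0.05 and DESeq2 called 1 fallen. Of the 11 striatal neuron markers edgeR called 0, at a median of -0.053, while 1 was higher at an unadjusted p under 0.05 and DESeq2 called 1 risen. Of the 12 microglia and macrophage markers 11 rose, at a median of 1.82. Of the 8 oligodendrocyte markers edgeR called 0, at a median of 0.78, while 7 were higher at an unadjusted p under 0.05 and DESeq2 called 4 risen. The part of these lists was not tested.

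Genes that anchor or modify sodium channels were set beside the channels. Of 13 tested, 4 fell and 0 rose in ICH against Sham, with a median of -0.26. Cntnap1, an axonal protein of the paranodal junction, had a log2 fold change of -1.26 ± 0.17 (adjusted p = 0.00044). Sptbn4, the spectrin of initial segments and nodes, had a log2 fold change of -0.69 ± 0.14 (adjusted p = 0.00591). Trim46, which organizes initial segment microtubules, had a log2 fold change of -0.77 ± 0.16 (adjusted p = 0.00626), and Fgf13, an intracellular channel modulator, had a log2 fold change of -0.85 ± 0.20 (adjusted p = 0.0125). No gene of this list was called in EDB against ICH, and 2 fell in EDB against Sham, Cntnap1 at -0.77 ± 0.16 (adjusted p = 0.0174) and Fgf13 at -0.85 ± 0.20 (adjusted p = 0.0271).

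The sodium leak channel complex sets resting excitability. Of its 5 tested genes 3 fell in ICH, at a list median of -0.51. They were Fam155b at -0.51 ± 0.14 (adjusted p = 0.0303), Unc80 at -0.63 ± 0.18 (adjusted p = 0.0326) and Fam155a at -0.82 ± 0.24 (adjusted p = 0.0371). The pore gene Nalcn was not called, at -0.13 ± 0.22 (adjusted p = 0.748). EdgeR called no gene of the complex in either comparison of EDB, with 1 higher in EDB against ICH and 2 lower in EDB against Sham at an unadjusted p under 0.05. DESeq2 called 2 of the 5 fallen in EDB against Sham.

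Calcium channels are tethered at release sites by active zone proteins. Of 22 tested partners and regulators, 6 fell and 0 rose in ICH, at a median of -0.64. Cabp1, a neuronal calcium-binding regulator of the channels, had a log2 fold change of -1.37 ± 0.13 (adjusted p = 6.78e-05). Unc13a, a vesicle priming protein, had a log2 fold change of -1.09 ± 0.14 (adjusted p = 0.000322). Rimbp2, a linker between the channels and the active zone, had a log2 fold change of -0.64 ± 0.12 (adjusted p = 0.00484), and the membrane SNARE protein Stx1a had a log2 fold change of -0.66 ± 0.13 (adjusted p = 0.00616). In EDB against ICH 0 were called, and in EDB against Sham 3 fell, namely Cabp1 at -0.70 ± 0.13 (adjusted p = 0.00832), Unc13a at -0.69 ± 0.14 (adjusted p = 0.0117) and Stx1a at -0.60 ± 0.13 (adjusted p = 0.0212). The list shares Snap25 with the neuron markers.

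Stores, store entry and extrusion gave calls in both directions. Of 18 tested genes 3 rose and 5 fell in ICH, at a median of -0.39. Ryr1, a calcium release channel best known from skeletal muscle, had a log2 fold change of -1.49 ± 0.30 (adjusted p = 0.00611). The sodium-calcium exchanger Slc8a1 rose, at 1.1002 ± 0.25 (adjusted p = 0.0116). Of the inositol trisphosphate receptor genes, Itpr3 and Itpr1 fell, at -0.78 ± 0.19 (adjusted p = 0.0141) and -0.73 ± 0.20 (adjusted p = 0.0276), and Itpr2, named after its values were seen, rose, at 0.51 ± 0.15 (adjusted p = 0.0333). In EDB against ICH 0 were called, and in EDB against Sham 1 fell, Ryr1, at -1.36 ± 0.30 (adjusted p = 0.0208). The part of the skeletal muscle markers in the Ryr1 values was not tested.

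AMPA receptors, the partners of most gamma subunits, were examined through 11 receptor and auxiliary genes. In ICH 4 fell and 0 rose, at a median of -0.48. The synaptic scaffold gene Dlg4 had a log2 fold change of -1.04 ± 0.15 (adjusted p = 0.000714), and the auxiliary subunit genes Cnih2, Gsg1l and Shisa7 had log2 fold changes of -0.88 ± 0.12 (adjusted p = 0.000598), -0.63 ± 0.18 (adjusted p = 0.03104) and -0.51 ± 0.16 (adjusted p = 0.0428). In EDB against ICH 0 were called. In EDB against Sham 2 fell, Dlg4 at -0.75 ± 0.15 (adjusted p = 0.0115) and Cnih2 at -0.63 ± 0.12 (adjusted p = 0.0102).

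Across the 69 tested genes of these 5 lists, edgeR gave 11 rises and 2 falls in EDB against ICH at an unadjusted p under 0.05, against the 6.27% of all tested genes risen and 9.97% fallen, and called none. DESeq2 called 2 rises and limma-voom 1 there, among the release site partners and the store genes. In EDB against Sham DESeq2 called 17 falls and limma-voom 8, where they called 5.28% and 2.3% of all tested genes fallen, and neither called a rise in these lists.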

How the data were processed

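RNA-seq read counts per gene of 9 rat striatal libraries, 3 each of EDB, ICH and Sham per the labels, were used as deposited by the authors. Cutadapt, HISAT2, HTSeq, limma and build Rnor_6.0 are named in the submitters' processing notes. The sources used here give no versions, annotation or strand setting, so reads of overlapping or antisense genes and of near-identical stretches among Scn or Cacn paralogs may be assigned either way. In R 4.3.3, edgeR 4.0.16 (filterByExpr, TMM, robust glmQLFit, a mean per group, all 9 libraries) tested 14274 genes, two-sided, with calls at an adjusted p (Benjamini-Hochberg) under 0.05. Total counts were 14658110 to 17659936, and 3 counts correspond to 0.162 to 0.212 CPM. Values in every library are given for called genes and tested pore genes, and for 1 uncalled gene, Cacng5, named after its values were seen; of each pathway list, up to 4 genes with the smallest p are named. Of the 40 genes the rule finds, 2 are not reported here and enter no count, median or figure of channel genes, though the fit includes them. The genes and lists were chosen with earlier results of these data known. Alternatives were RLE or library-size scaling, other filters, DESeq2 1.42.0, limma-voom 3.58.1, the 6 compared libraries, a replicate block and each library left out; 2 were added after seeing the data. In data simulated with the spread of these counts, edgeR called 16.4% of 1.5-fold and 67.2% of 2-fold changes in ICH against Sham. There 67 genes were changed at each of these sizes, all above a minimum level, and nearly all of the 14152 tested were left unchanged. In EDB against ICH it called 19.4% and 71.6%, so most 1.5-fold changes were missed in the simulation. The adjusted p depends on how many genes change, so these shares may differ from those in the real data, above all in ICH against Sham. No 2 libraries of the same group were duplicates, and pairs across groups were not checked. Promoter windows and symbols came from RefSeq tables of GRCr8.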

Additional observations from a re-analysis of the deposited data

How the results depend on the processing

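The number of channel genes called in ICH against Sham (12) was 7 with scaling by library size only, 5 with scaling by neuron marker counts and 5 at an adjusted p under 0.01, and ran from 6 to 12 with each library left out in turn. It lay between 8 and 15 under the other alternatives. In EDB against ICH (0) it was 2 with DESeq2 and 1 without both Sham 2 and EDB 3, and ran from 0 to 2 with each library left out. In EDB against Sham (5) it was 9 with DESeq2, 3 with only the 6 libraries compared, 1 at an adjusted p under 0.01 and 3 without both Sham 2 and EDB 3, of which 1 was a rise, in Scn2b, and ran from 1 to 6 with each library left out. Scaling by neuron marker counts moved the median of all genes to 0.37, -0.34 and 0.048 in the 3 comparisons, and scaling by library size only to 0.10, -0.11 and 0.017. The cause of these differences was not tested. Of 1817 values for single channel genes under the alternatives, 1618 kept their direction and side of the threshold, 80 lost a call, 29 gained one, and 90 were uncalled values that changed sign. Deviations of same-numbered libraries from their group means correlated at -0.31 to 0.25. Differently numbered libraries were not compared, so whether replicate numbers pair the libraries is not settled. With the replicate block the counts were 10, 0 and 4. The depth leaves genes such as Scn7a at a few counts per library, where changes could not be resolved.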

Other observations

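Ion channel genes of related name that lie outside these families were also read: the voltage-gated proton channel Hvcn1, the endolysosomal channels Tpcn1 and Tpcn2, the epithelial sodium channel subunit Scnn1a and the sperm calcium channel genes Catsper2, Catsperd and Catsperg. None of the 7 was called in any of the 3 comparisons by edgeR. Hvcn1, known from microglia, had 16.5, 13.97 and 7.38 CPM in EDB, 17.7, 16.04 and 12.6 CPM in ICH and 9.12, 11.1 and 8.42 CPM in Sham. All ICH libraries were above all Sham libraries, at a log2 fold change of 0.69 ± 0.28 (adjusted p = 0.110). Tpcn1 had 117, 108 and 110.2 CPM in EDB, 104, 113 and 119 CPM in ICH and 123, 129.96 and 121 CPM in Sham, with a log2 fold change of -0.16 ± 0.10 in ICH against Sham (adjusted p = 0.322).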
